A study of Mus musculus with 6 samples.

Results

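The core cardiac transcription factors are a small set of DNA-binding proteins that together switch on and maintain the genes of the heart muscle cell. The 10 described here, Gata4, Gata6, Nkx2-5, Mef2a, Mef2c, Mef2d, Tbx5, Tbx20, Hand2 and Srf, were taken by name from the 24972 gene rows of the table, and all 10 were found and passed the filter for testing (a mean of at least 10 normalized read counts over the 6 libraries). RNA came from ventricular cardiomyocytes of mice of the MX1gfp genotype, a reporter strain for the interferon-stimulated gene Mx1. The vehicle group (3 libraries) received 100 microlitres of phosphate buffered saline into the peritoneum, and the doxorubicin group (3 libraries) received 100 microlitres carrying 25 mg of doxorubicin per kg of body weight, an anthracycline that poisons topoisomerase II. Both groups carried the reporter and were sampled once, at 48 h. The myocytes were enriched by settling under gravity and were not sorted. Age and sex are not given in the labels, and nothing in them says that a library pools animals.

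GATA factors bind DNA through zinc fingers, Nkx2-5 through a homeodomain, Tbx5 and Tbx20 through the T-box, Hand2 through a basic helix-loop-helix, and the MEF2 proteins and Srf through the MADS box. They bind each other and share targets, so that Gata4, Nkx2-5, Tbx5, Srf and MEF2 proteins often act on the same cardiac promoters and enhancers. In the adult heart they maintain contractile, conduction and stress genes, and Gata4 is also known as a survival factor of the cardiomyocyte. Some are not exclusive to that cell: Mef2a, Mef2d and Srf are found in most tissues, Gata6 also in endothelial and smooth muscle cells, and Gata4, Hand2 and Tbx20 also in cardiac fibroblasts.

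Promoter sequences of 300 bases, from 250 before to 50 after a transcription start, were held by the RefSeq table of GRCm38 for 7 of the 10 factors, in 9 windows. Those of Srf, Mef2a and Nkx2-5 are printed here because Srf and Nkx2-5 stood lowest after doxorubicin and because the Srf and Mef2a windows each hold a site for the protein family that the gene itself encodes. Capitals mark a CArG box, the site bound by Srf, or a MEF2 site. The windows lie at chr17:46556113-46556412 (Srf), chr7:67372809-67373108 (Mef2a) and chr17:26841516-26841815 (Nkx2-5), all on the minus strand, and are written 5′ to 3′ along the gene.
Srf: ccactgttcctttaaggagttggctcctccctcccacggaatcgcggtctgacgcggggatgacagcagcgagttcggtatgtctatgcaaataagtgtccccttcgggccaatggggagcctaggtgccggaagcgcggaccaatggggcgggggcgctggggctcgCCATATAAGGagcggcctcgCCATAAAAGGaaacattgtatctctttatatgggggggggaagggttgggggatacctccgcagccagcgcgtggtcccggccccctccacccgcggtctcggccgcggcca
Mef2a: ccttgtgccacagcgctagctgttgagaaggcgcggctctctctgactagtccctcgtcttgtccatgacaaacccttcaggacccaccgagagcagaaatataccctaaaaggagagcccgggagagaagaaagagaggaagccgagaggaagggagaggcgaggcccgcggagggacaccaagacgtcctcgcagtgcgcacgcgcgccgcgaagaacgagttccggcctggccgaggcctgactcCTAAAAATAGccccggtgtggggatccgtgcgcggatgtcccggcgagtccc
Nkx2-5: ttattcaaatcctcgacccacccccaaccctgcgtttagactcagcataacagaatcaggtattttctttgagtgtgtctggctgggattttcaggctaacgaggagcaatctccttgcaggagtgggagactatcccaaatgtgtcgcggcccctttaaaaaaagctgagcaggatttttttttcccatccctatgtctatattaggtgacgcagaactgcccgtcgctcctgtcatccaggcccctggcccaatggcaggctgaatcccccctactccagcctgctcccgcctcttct
The Srf window holds a pair of CArG boxes, CCATATAAGG with its first base at -82 and CCATAAAAGG at -62 from the start site. A CArG box on either strand was present in 1.63% of the 32851 RefSeq windows of this length. The Mef2a window holds the MEF2 site CTAAAAATAG with its first base at -2, a motif found in 0.557% of all windows. Sites of the other families were also searched on both strands. The GATA site was taken as AGATAA, present in 11.2% of windows. The Nkx2-5 site was taken as TNAAGTG (11.5% of windows) and the T-box site as AGGTGTGA (1.28%). One form of the E-box, the kind of site that basic helix-loop-helix proteins bind, was taken as CACGTG (7.15%). Among the factors' windows these gave 1 further match, a GATA site in the Hand2 window from -172, and no motif there shared bases with another. None of the motifs searched was found in the Nkx2-5 window. The printed windows lie inside the annotated spans of their genes, not at the 5′ ends of those spans. Sequence outside the windows was not searched.

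All 10 factors had a lower mean on the log2 scale after doxorubicin with the values as deposited. Gata6 and Mef2d turned positive when libraries were scaled to equal totals, and all 10 did so relative to cardiomyocyte markers. With the values as deposited and all libraries weighted equally, no single factor passed the test. The median log2 fold change of the 10 was -0.38, with a range from -0.96 to -0.17, whereas the median of all 12477 genes tested was -0.0046 and 50.4% of them were below 0. Nkx2-5, Srf and Gata4 stood lowest, at 51.3%, 55.2% and 57.3% of the vehicle level. Gata6 and Mef2d differed least. With limma, 0 of the 10 were called at a Benjamini-Hochberg adjusted p under 0.05 over all genes tested, and percent called over all genes was 0. With libraries weighted by their own spread, limma called 4 of the 10 lower, beside 18.6% of all genes lower and 15.7% higher. They were Srf, Nkx2-5, Gata4 and Mef2c (limma adjusted p 0.0058, 0.0067, 0.0139 and 0.0175). The weights were lowest for doxorubicin replicates 1 and 3 (0.277 and 0.425) and highest for vehicle replicate 2 (3.24). All 4 were also called without doxorubicin replicate 1, a fit described further on. At an unadjusted p under 0.05, 4 of the 10 were lower (Nkx2-5, Srf, Gata4 and Mef2c) and 0 higher, beside 19.3% of all genes lower and 16.7% higher. The groups did not overlap, meaning that all 3 values of 1 group lay beyond all 3 of the other, in 3 of the 10 (Nkx2-5, Srf and Gata4), beside 22.6% of all genes in that direction. Nkx2-5 alone kept this separation with each library scaled to the same total (10.1% of all genes) and with quantile normalization (21.6%), and with scaling to cardiomyocyte markers, described further on, 0 did (0.0561%). With 1 library left out, the groups of 5, 4 and 3 of the 10 were separate in this direction without vehicle replicates 1 to 3 (28.2%, 25.7% and 24.9% of all genes), and those of 6, 5 and 3 without doxorubicin replicates 1 to 3 (32.9%, 28.1% and 24% of all genes).

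The libraries were not alike, and this bears on every value that follows. The deposited values summed to 7217950 to 7500390 in the vehicle libraries and to 5410780 to 6498370 in the doxorubicin libraries. The estimated reads behind them numbered about 7710000 to 11300000 and 3650000 to 6160000, so that depth and treatment cannot be told apart. Behind a single value of a factor stood an estimated 81 (Tbx5 in doxorubicin replicate 3) to 2971 reads (Mef2a in vehicle replicate 1). Summed cardiomyocyte markers, 15 genes, none of them at 0, ranged from 795971 to 962011 in vehicle, while doxorubicin replicates 1 to 3 held 712834, 256421 and 210688. Summed endothelial markers (10 genes) ranged from 15874 to 20428 in vehicle and from 26128 to 35936 after doxorubicin, fibroblast markers (10) from 6858.5 to 8976 and from 9553 to 24829, and macrophage markers (10) from 2386 to 2503 and from 3895 to 14814.5. The part of cell composition in the differences of the 10 factors was not tested. In such bulk libraries fewer cardiomyocytes and less RNA per cardiomyocyte cannot be told apart.

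**Figure D1:**
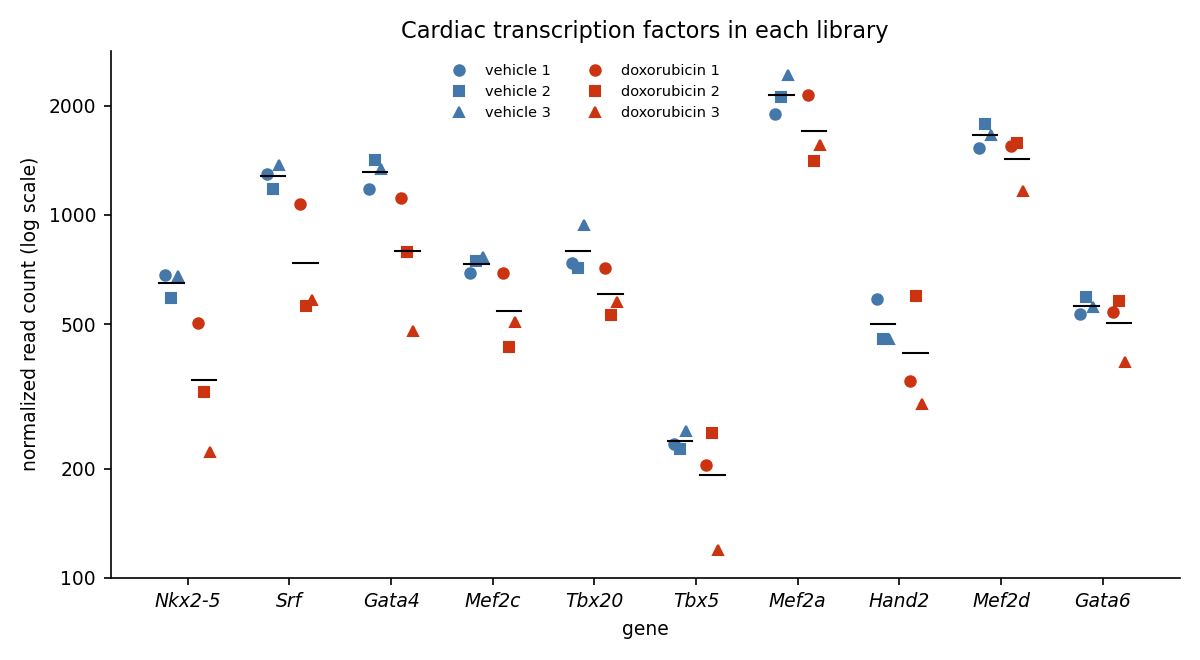
Normalized read count of each factor (log scale) in the 3 vehicle libraries (blue) and the 3 doxorubicin libraries (red), with marker shape giving the replicate and a bar the group mean; genes run from the lowest to the highest log2 fold change. Nkx2-5, Srf and Gata4, at the left, are those in which no doxorubicin library reaches a vehicle library.

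Nkx2-5, the homeodomain factor needed for heart formation and for the conduction system, differed most. Its gene lies on chromosome 17 (26838664 to 26844988, GRCm38). Vehicle replicates 1 to 3 held 682, 589.8 and 676.5 normalized read counts, and doxorubicin replicates 1 to 3 held 505, 325 and 222. Every doxorubicin library lay below every vehicle library, replicate 3 the lowest. The means were 649.5 ± 51.8 and 351 ± 143 (SD, n = 3 each). The log2 fold change was -0.96 (SE 0.28, limma adjusted p 0.0859).

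Srf, the MADS-box factor of actin, contractile and immediate early genes, lies on chromosome 17 (46546838 to 46558267). It had 1292, 1175 and 1376 normalized read counts in vehicle and 1072, 561 and 581 after doxorubicin, in the order of the replicates, as in all that follows. Vehicle and doxorubicin values were fully separate, and replicates 2 and 3 were close to each other, well below replicate 1. With means of 1281 ± 101 and 738 ± 289 (SD, n = 3), the log2 fold change was -0.86 (SE 0.26, limma adjusted p 0.0859).

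Gata4, a zinc-finger factor of natriuretic peptide and contractile genes, lies on chromosome 14 (63198914 to 63271712). Its values were 1176, 1416 and 1340 in vehicle and 1111, 791 and 477 after doxorubicin. No doxorubicin library reached the vehicle range, but replicate 1 was only just below vehicle replicate 1. The means were 1311 ± 123 and 793 ± 317 (SD, n = 3), and the log2 fold change was -0.80 (SE 0.29, limma adjusted p 0.104). Without doxorubicin replicate 3 the difference was -0.48, and without replicate 1 it was -1.09.

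Gata6, the other GATA factor of the working heart, lies on chromosome 18 (11052510 to 11085636). Its values were 532, 593 and 558 in vehicle and 539.6, 580.5 and 393 after doxorubicin. Doxorubicin replicates 1 and 2 lay within the vehicle range and replicate 3 below it. The log2 fold change was -0.17 (95% interval -0.59 to 0.24, limma adjusted p 0.507), and it was 0.13 when each library was scaled to the same total, a scaling that moved the median of all genes to 0.29. Without doxorubicin replicate 3 it was -0.0024. The annotated Gata6os overlaps Gata6 by 58 bases, and the use of strand in counting is not given in the sources used here, so that reads of the overlap cannot be assigned.

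The ratio of Gata4 to Gata6 within a library hardly changes when a whole library is multiplied by a constant, though quantile normalization can change it. It was 2.21, 2.38 and 2.40 in vehicle and 2.06, 1.36 and 1.21 after doxorubicin. Vehicle and doxorubicin libraries did not overlap, as in 10 of the 45 pairs of factors. The log2 difference of the ratio was -0.63 after doxorubicin. An exact two-sided permutation test gave p = 0.1, the smallest that 3 libraries against 3 allow, and 0.45 when adjusted over the 45 pairs of factors compared in this way. The ratio is not one of abundance, since the genes differ in length.

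The MEF2 proteins are MADS-box factors that pair with GATA factors and respond to calcium signals. Mef2c (chromosome 13, 83504017 to 83667079) had 691, 747 and 766 normalized read counts in vehicle and 691.9, 433 and 507 after doxorubicin. Replicate 1 lay within the vehicle range and replicates 2 and 3 below it. The log2 fold change was -0.46 (SE 0.19, limma adjusted p 0.134). Mef2a (chromosome 7, 67231163 to 67376456) had 1891, 2110 and 2436 in vehicle and 2141, 1411 and 1562 after doxorubicin. It showed the same order of libraries, with replicate 1 inside the vehicle range, and differed by -0.35 on the log2 scale (SE 0.21, adjusted p 0.259), or by -0.22 without doxorubicin replicate 2. Mef2d (chromosome 3, 88141941 to 88172091) had 1530, 1784 and 1657 in vehicle and 1547, 1577 and 1162 after doxorubicin. Here replicate 2 as well as replicate 1 stood within the vehicle range. The log2 fold change of Mef2d was -0.22 (95% interval -0.64 to 0.19, adjusted p 0.386), 0.077 with equal totals and -0.082 without doxorubicin replicate 3.

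Within libraries, doxorubicin replicate 2 stood apart in both ratios that involve Mef2d. The ratio of Mef2c to Mef2d was 0.452, 0.419 and 0.462 in vehicle and 0.447, 0.275 and 0.437 after doxorubicin. That of Mef2a to Mef2d was 1.24, 1.18 and 1.47 in vehicle and 1.38, 0.895 and 1.34 after doxorubicin. The ratio of Mef2a to Mef2c was 2.73, 2.82 and 3.18 in vehicle and 3.09, 3.25 and 3.08 after doxorubicin. The groups overlapped in all 3 MEF2 ratios (Mef2a to Mef2c, Mef2a to Mef2d and Mef2c to Mef2d), with exact permutation p of 0.3, 0.8 and 0.5. The lncRNA 1700113A16Rik overlaps Mef2d by 532 bases and had at most 4.46 counts in a library. Gm52043 and Gm52044 overlap Mef2c by 32293 and 26034 bases and have no row of values.

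**Figure D2:**
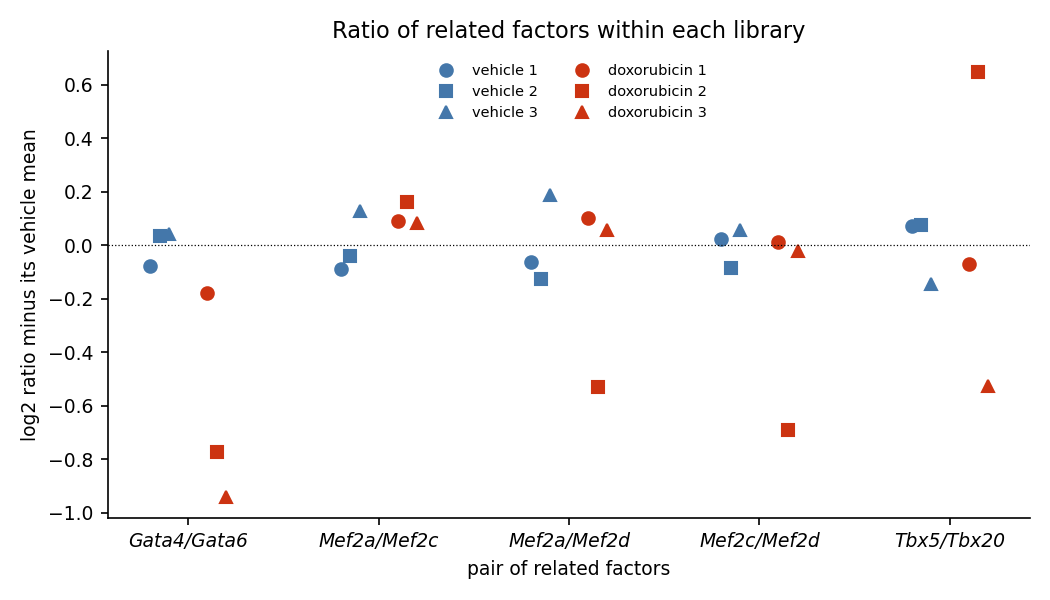
Ratio of related factors within each library, as log2 of the ratio minus its mean in the vehicle libraries (blue, vehicle; red, doxorubicin; shapes give the replicate). For Gata4/Gata6 the 3 doxorubicin libraries lie below the vehicle libraries; in the other 4 pairs the groups overlap, and doxorubicin replicate 2 stands apart in Mef2a/Mef2d, Mef2c/Mef2d and Tbx5/Tbx20.

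The T-box factors differed in which library was low. Tbx5, the factor of atrial septation, the conduction system and the Holt-Oram syndrome, lies on chromosome 5 (119796514 to 119885220). It overlaps Gm5563, which has no row of values, by 26660 bases. Its values were 234, 227 and 255 in vehicle and 205, 250.1 and 120 after doxorubicin. Replicate 2 was within the vehicle range, and replicate 3 was far below every other library. The log2 fold change was -0.38 (SE 0.27, limma adjusted p 0.329), and -0.071 without doxorubicin replicate 3. Leaving out replicate 2 in its place gave -0.60. Tbx20 (chromosome 9, 24720812 to 24774303), needed for adult cardiomyocyte function, had 738, 715 and 936 in vehicle and 715.4, 530.1 and 574 after doxorubicin. Replicate 1 coincided with the lowest vehicle library and replicates 2 and 3 were below it. Its log2 fold change was -0.39 (SE 0.18, adjusted p 0.157).

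Hand2, a basic helix-loop-helix factor of the right ventricle and outflow tract during development, lies on chromosome 8 (57320983 to 57324517). It had 586, 456 and 455 normalized read counts in vehicle and 349, 599 and 301 after doxorubicin. The highest value of all, 599, was in doxorubicin replicate 2 and the lowest pair in replicates 1 and 3, so the doxorubicin libraries lay on both sides of the vehicle range. The log2 fold change was -0.32 (95% interval -0.94 to 0.30, limma adjusted p 0.409). Leaving out doxorubicin replicate 2 gave -0.61, and leaving out replicate 3 gave -0.12.

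Library by library, 6 of the factors were low in doxorubicin replicates 2 and 3, and the other 4 were low in replicate 3 but not in replicate 2. In replicate 3 all 10 lay below every vehicle library, where 43% of all genes tested did so. In replicate 2, 6 lay below every vehicle library (40.3% of all genes), and Gata6, Mef2d, Tbx5 and Hand2 did not; Hand2 lay above all vehicle libraries, as did 39.8% of all genes. In replicate 1, 5 did so (34.6% of all genes), namely Nkx2-5, Srf, Gata4, Tbx5 and Hand2. The median of the 10 relative to the vehicle mean was -0.18, -0.59 and -0.63 in replicates 1 to 3.

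**Figure D3:**
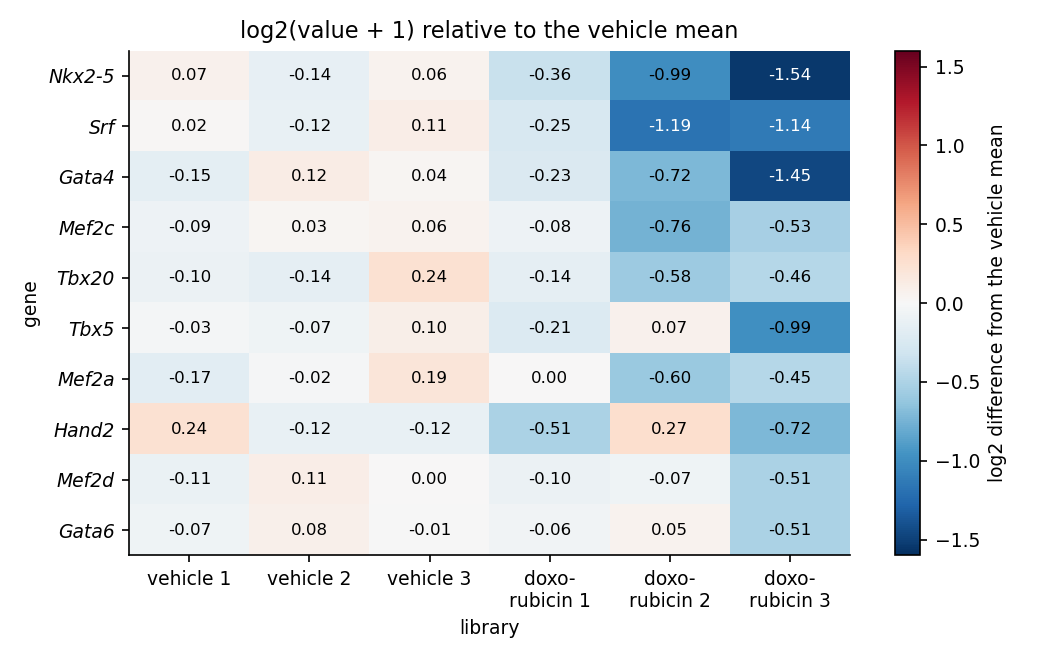
Difference of log2(value + 1) from the vehicle mean for each factor (rows) in each library (columns), with blue for lower and red for higher. Doxorubicin replicate 3 is below 0 in every row, from -1.54 to -0.45, while Hand2 (0.27), Tbx5 (0.07) and Gata6 (0.05) are above 0 in doxorubicin replicate 2.

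Doxorubicin replicate 1 decided the calls. Without it, limma called 6 of the 10 factors lower and 0 higher at an adjusted p under 0.05, where it called 21.8% of all genes lower and 19.3% higher. Srf fell by 1.16 on the log2 scale (SE 0.14, adjusted p 0.00081), Nkx2-5 by 1.27 (SE 0.19, adjusted p 0.0017) and Gata4 by 1.09 (SE 0.22, adjusted p 0.0065). Mef2c, Mef2a and Tbx20 changed by -0.65, -0.52 and -0.52, with adjusted p of 0.0096, 0.041 and 0.037. Gata6, Mef2d, Tbx5 and Hand2 were not called, at -0.23, -0.29, -0.46 and -0.22, with adjusted p between 0.225 and 0.550. Among the genes around them, this fit called 8 lower and 3 higher of 20 cofactors, 16 and 0 of 20 cardiac targets, 12 and 0 of 15 MEF2 targets and 8 and 2 of 19 Srf targets. Leaving out any other single library called 0 of the 10. Over the 17 alternatives run, the limma adjusted p ranged from 0.00081 to 0.270 for Srf, from 0.0017 to 0.371 for Nkx2-5 and from 0.0065 to 0.270 for Gata4. The upper ends for Srf and Nkx2-5 came from the scaling to cardiomyocyte markers, where their differences were positive (0.69 and 0.58).

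Transcripts of Xist and of the Y chromosome divided the libraries otherwise than treatment did: vehicle replicates 1 and 2 and doxorubicin replicate 2 held Ddx3y at 659 to 958, and the other 3 held it at 0. Each class has a group with a single library, so values within it carry no test. Nkx2-5 differed by -0.96 among the libraries with Y-linked transcripts and by -1.01 among those with Xist, Srf by -1.13 and -0.80, and Gata4 by -0.71 and -0.88. Tbx5 differed by 0.12 and -0.70, Hand2 by 0.21 and -0.49, and Gata6 by 0.047 and -0.28. For these last 3 the sign thus depended on the class, which in the first class is that of doxorubicin replicate 2 alone.

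Of the 45 ratios between any 2 of the factors, 10 had groups that did not overlap. The share among ratios of other genes was not computed. As single genes, 22.6% of all genes tested were lower and 19.2% higher without overlap, but these shares do not stand for that of ratios. The 45 ratios share the same 10 genes and are not independent. Nkx2-5 took part in 6 of the 10 ratios without overlap, always on the lower side after doxorubicin. Its partners there were Gata6, Mef2a, Mef2c, Mef2d, Tbx5 and Tbx20. Srf was lower relative to Mef2a and Mef2c, and Gata4 relative to Gata6 and Mef2d. Nkx2-5, Srf and Gata4 also had the lowest log2 fold changes of the factors, so these ratios are not a separate result. The ratio of Nkx2-5 to Mef2d was 0.446, 0.331 and 0.409 in vehicle and 0.327, 0.207 and 0.192 after doxorubicin, a log2 difference of -0.74. The exact permutation p of each of these ratios was 0.1, and the smallest adjusted p over the 45 was 0.45.

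Per kilobase of merged exons, the vehicle libraries ranked the factors from Srf (490 ± 38.6 normalized read counts per kilobase, SD, n = 3) and Nkx2-5 (426 ± 34.0) through Mef2a (377 ± 48.2), Gata4 (360 ± 33.7), Mef2d (284 ± 21.7), Hand2 (212 ± 32.1), Gata6 (174 ± 9.45), Mef2c (101 ± 5.34) and Tbx20 (83.2 ± 12.7) to Tbx5 (60.4 ± 3.69). The vehicle ranges of Nkx2-5 and Mef2a overlapped, as did those of Mef2a and Gata4 and those of Mef2c and Tbx20. Those of Srf and Nkx2-5, of Gata4 and Mef2d, of Mef2d and Hand2, of Hand2 and Gata6, of Gata6 and Mef2c and of Tbx20 and Tbx5 did not. After doxorubicin Srf, at 282 ± 111, and Nkx2-5, at 230.0 ± 93.7, stood beside Mef2a at 299 ± 67.7 and Mef2d at 245 ± 39.6, with ranges that overlapped.

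Of 12 other genes of the same families, 5 were tested (Gata2, Gata3, Tbx2, Tbx3 and Tbx18). Isl1, Hand1 and Nkx2-6 were at 0 in every library, and the highest value was 0.958 for Mef2b and 0.635 for Gata1. All 5 that were tested had a positive log2 fold change (median 0.46), and limma called 0. Gata2, the GATA factor of endothelial and blood cells, had 241, 273 and 218 in vehicle and 390, 623 and 873 after doxorubicin. Its groups did not overlap, and its log2 fold change was 1.29 (SE 0.28, limma adjusted p 0.0859). Tbx3, a T-box repressor that marks the conduction system, had 190, 187 and 165 in vehicle and 179, 338 and 487 after doxorubicin (0.78, adjusted p 0.139). Gata5 stayed below the filter, with 2.61 to 3.77 in vehicle and 7.49 to 17.0 after doxorubicin. Endothelial markers, 9 of 10 with a positive change and a median of 0.81, differed in the same direction as Gata2, and their part in it was not tested.

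Among 20 cofactors and partners of the factors, 13 had a negative and 7 a positive log2 fold change, with a median of -0.34. The groups did not overlap in 8 lower and 2 higher genes (40.0% and 10.0% of the list, beside 22.6% and 19.2% of all genes), and limma called 0 with all libraries. Smarcd3, the chromatin remodelling subunit that works with Gata4 and Tbx5, had 531, 490 and 514 in vehicle and 336, 195 and 210 after doxorubicin. The groups lay well apart, and Smarcd3 had the smallest p of the list (log2 fold change -1.09, SE 0.22, adjusted p 0.0859). Hopx, a homeodomain-only protein that binds Srf, had 2695, 2435 and 2660 in vehicle and 1875, 589 and 586 after doxorubicin (-1.58, adjusted p 0.0859). Its doxorubicin replicates 2 and 3 were alike and replicate 1 stood between them and vehicle, the order seen for Srf itself. Fhl2, a LIM-domain cofactor of Srf, differed by -1.51 and Irx4, a ventricular homeodomain repressor, by -1.39, both with groups that did not overlap.

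The coactivators of Srf differed in opposite directions. Myocd, the myocardin gene, had 430, 340 and 496 in vehicle and 369, 153 and 138 after doxorubicin. Only doxorubicin replicate 1 lay within the vehicle range (log2 fold change -1.07, SE 0.37, limma adjusted p 0.0946). Mrtfb, listed under its older name, had 287, 312 and 304 in vehicle and 381, 457 and 573 after doxorubicin. All 3 doxorubicin libraries were above all vehicle libraries (0.62, SE 0.18, adjusted p 0.0859). Mrtfa, also under its older name, differed by 0.41 (adjusted p 0.164) without overlap. Without doxorubicin replicate 1, Myocd fell by 1.51 and Mrtfb changed by 0.76, with adjusted p of 0.00080 and 0.0061. Tead1, a partner on muscle promoters, differed by -0.96 (adjusted p 0.103) and Zfpm2, the Gata4 cofactor known as FOG2, by -0.43 (adjusted p 0.210).

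Class IIa histone deacetylases hold MEF2 proteins inactive until kinases drive them from the nucleus. Of 9 genes of these deacetylases and their kinases, 5 had a positive and 4 a negative log2 fold change, with a median of 0.044. Hdac4, Hdac5, Hdac7 and Hdac9 differed by 0.044, -0.067, 0.49 and -0.43, with limma adjusted p of 0.887, 0.765, 0.199 and 0.177. The signs of Hdac4 and Hdac5 depended on the library left out, with ranges from -0.14 to 0.18 and from -0.12 to 0.036. Camk2d, the main cardiac calmodulin kinase of this step, had 1079, 1245 and 1588 in vehicle and 1002, 581 and 619 after doxorubicin, without overlap (-0.85, adjusted p 0.0859). Prkd2, protein kinase D2, had 298, 288 and 203 in vehicle and 350, 543 and 676 after doxorubicin, also without overlap (0.96, adjusted p 0.0859).

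Of 22 cardiac target genes 20 were tested, 18 with a negative log2 fold change, and their median was -1.42. The groups did not overlap in 10 lower and 0 higher genes, beside 22.6% and 19.2% of all genes. The list shares 9 genes with the cardiomyocyte markers, and the median of the other 11 tested was -1.28. Nppb, the B-type natriuretic peptide and a Gata4 target, had the smallest p of the list (-2.52, SE 0.68, limma adjusted p 0.0859). Gja1, connexin 43, had 3833, 4307 and 4697 in vehicle and 3198, 958 and 1397 after doxorubicin (-1.39, adjusted p 0.0859). Adra1b, the alpha-1B adrenergic receptor, differed by -0.91 (adjusted p 0.150). The differences of Nppa and Gja5, targets of Nkx2-5 and Tbx5, were 0.34 and 0.71, both with groups that overlapped (adjusted p 0.567 and 0.279). Without doxorubicin replicate 1, that of Nppa was -0.10. Doxorubicin replicate 1 held the highest Nppa value, 860.0, and also the highest sum of 5 atrial markers, 761 beside 268 to 377 in vehicle.

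All 15 MEF2 target genes were on the negative side, between -1.74 and -0.63 on the log2 scale, and their median was -1.12. In 12 of them vehicle and doxorubicin values were fully separate, beside 22.6% of all genes in that direction. Pgam2, the muscle phosphoglycerate mutase, had 4288, 4107 and 4047 in vehicle and 2936, 1055 and 992 after doxorubicin (-1.51, limma adjusted p 0.0859). Ckm, muscle creatine kinase, differed by -1.61 and Smyd1, a muscle histone methyltransferase, by -1.12, both with an adjusted p of 0.0859. Most of these genes are themselves expressed mainly in muscle. The 15 cardiomyocyte markers had a median of -1.31, and the part of cell composition in their differences was not tested.

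The targets of Srf differed in both directions. Of 20, 19 were tested, 12 with a negative and 7 with a positive log2 fold change, and the median was -0.29. The median was 0.012 with equal totals, a scaling that moved the median of all genes to 0.29. It ran from -0.45 to -0.090 when a library was left out. The groups did not overlap in 4 lower genes and 1 higher gene (21.1% and 5.26% of those tested, beside 22.6% and 19.2% of all genes). Dmd, dystrophin, had 1227, 1566 and 1431 in vehicle and 1043, 475 and 379 after doxorubicin (-1.29, SE 0.35, limma adjusted p 0.0859). Acta1, skeletal alpha actin, had 1240, 1789 and 1007 in vehicle and 1119, 129 and 199 after doxorubicin (-2.09, adjusted p 0.0955), with replicate 1 again among the vehicle values. Acta2, smooth muscle actin, which mural cells also express, differed by -1.08 (adjusted p 0.288), and by -0.28 without doxorubicin replicate 2 and -1.74 without replicate 1. Egr1, an immediate early gene, and Ankrd1, a stretch-responsive gene of the sarcomere, differed by -0.29 and -0.15 (adjusted p 0.498 and 0.822). The sign of Ankrd1 was not stable: it stood at 0.31 without doxorubicin replicate 1, at 0.037 without vehicle replicate 3 and at 0.15 with equal totals. Egr1 stayed negative whichever library was left out, from -0.52 to -0.073. It stood at 0.012 with equal totals, below the median of all genes under that scaling.

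**Figure D4:**
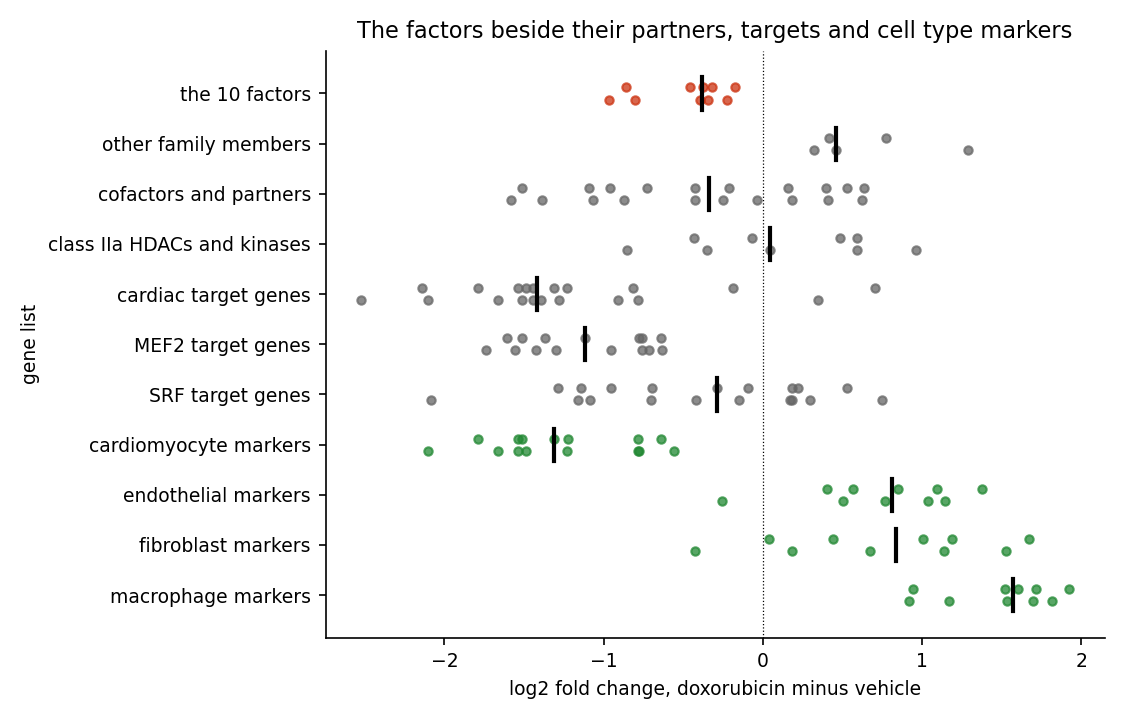
Log2 fold change of every tested gene (points) in each list, with the list median as a black bar; the 10 factors are red, their partners and targets grey, cell type markers green. The median of the factors (-0.38) lies between that of all genes (-0.0046) and those of MEF2 targets (-1.12), cardiomyocyte markers (-1.31) and cardiac targets (-1.42).

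Most of the factors, like most genes tested, stood above the median cardiomyocyte marker in each doxorubicin library. The markers' median relative to the vehicle mean was -0.42, -1.71 and -1.89 in replicates 1 to 3, and 9, 10 and 10 of the factors lay above it. The median of all genes tested was -0.015, 0.0023 and -0.0061 in these libraries, also above it. The exact share of all genes above it was not computed. When every library was scaled to its median cardiomyocyte marker, the differences of the 10 turned positive, from 0.58 (Nkx2-5) to 1.38 (Gata6), with a median of 1.16. That scaling moved the median of all genes to 1.54, and limma then called 3 of the 10 higher (Gata6, Mef2a and Mef2d) and 0 lower, beside 59.1% of all genes higher and 0.112% lower. Because this scaling shifts every gene of a library by the same amount, it cannot change where the factors stand relative to all genes.

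The gene most like each factor was sought among 8202 genes with a mean of at least 100, as the smallest root mean square difference of log2 values relative to the vehicle mean over the 6 libraries. It was Pcyt2 for Nkx2-5 (a difference of 0.040), Elp4 for Srf (0.063), Kyat3 for Gata4 (0.061), Asb1 for Gata6 (0.058), Lman1 for Mef2a (0.023), Hnrnpa2b1 for Mef2c (0.024), Tmco3 for Mef2d (0.050), Klhl23 for Tbx5 (0.061), Cln6 for Tbx20 (0.028) and Ubl5 for Hand2 (0.050). Such likeness was common. Between 115 genes (Hand2) and 1256 genes (Mef2d) lay within 0.2 of a factor.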

How the data were processed

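Total RNA of 6 libraries was sequenced. Per the labels, STAR, run within BaseSpace RNAseq Alignment 2.0.2, placed reads on mm10 with RefSeq genes, and RNA-seq Differential Expression 1.0.1 followed. The submitters' processing notes name STAR 2.6.1a and Salmon. The deposited signal is read counts per gene as normalized by the authors. How they were normalized and counted, and whether strand was used, is not given in the sources used here. Depth was estimated by taking the most common low value of a library as the worth of 1 read. Only 80.5% to 92.6% of low values lay within 0.1 of a whole multiple, too few for a count test.

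Groups came from sample titles. The test was limma 3.58.1 under R 4.3.3 on log2 of the value plus a pseudocount of 1, for the 12477 genes whose mean reached 10 (moderated, prior variance dependent on the mean, two-sided, Benjamini-Hochberg over all genes, threshold 0.05). Differences are doxorubicin minus vehicle on this log2 scale, so those of low genes are understated. Nothing in the labels ties each library to a separate animal beyond the stated number per group, so p-values measure the spread between these samples. The script was tested on simulated data.

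The factors, lists and alternatives were chosen with earlier results of these data known. Named genes were the 10 factors, a set of list genes fixed by name and the gene with the smallest p of each list. Hand1, Nkx2-6, Mef2b, Gata1, Gata3, Tbx2, Tbx18 and Hdac7 were named after their values were seen. The genes most like each factor were taken by the stated distance. Ratios between factors, values within the Xist and Y classes overlap counts under other settings and leave-one-out values of list genes were added after seeing the data. Coordinates (counted from 1) and promoters are from RefSeq on GRCm38.p6, which mm10 denotes, and exon lengths from GENCODE M21 basic transcripts. Plots used matplotlib 3.10.9 under Python 3.11.15.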

Additional observations from a re-analysis of the deposited data

How the results depend on the processing

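With all 6 libraries limma called 0 genes higher and 0 lower (4485 at an unadjusted p under 0.05), and the same 0 at pseudocounts of 0.5 and 8, without a filter, with a minimum mean of 50, with equal totals, quantile normalization, no trend, the replicate block and the class covariate. Library weights gave 1954 higher and 2318 lower and called Gata4, Nkx2-5, Mef2c and Srf. Leaving out 1 library gave 0 to 2409 higher and 0 to 2718 lower, the highest without doxorubicin replicate 1; without replicate 2, 1 gene was lower. The number of factors lower without overlap, 3, was 1 with equal totals (10.1% of all genes) and with quantile normalization (21.6%), 0 with the marker scaling (0.0561%), and 3 to 6 when a library was left out, for which the shares of all genes stand in the results. The median of the 10 was -0.084 with equal totals and -0.52 to -0.33 when a library was left out.

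Equal totals gave medians of 0.34 for deacetylases and kinases and -0.038 for cofactors, and positive values for Gata6 (0.13) and Mef2d (0.077). The marker scaling, which by construction sets cardiomyocyte markers near 0, gave medians of 1.16 for the factors, 0.13 for cardiac targets, 0.43 for MEF2 targets, 1.26 for Srf targets, 1.21 for cofactors, 1.59 for deacetylases and kinases and 2.01 for other family members. It turned all 10 factors positive: Gata4 0.75, Gata6 1.38, Nkx2-5 0.58, Mef2a 1.20, Mef2c 1.09, Mef2d 1.32, Tbx5 1.17, Tbx20 1.15, Hand2 1.23 and Srf 0.69. The median of deacetylases and kinases was 0.21 with library weights and ran from -0.11 to 0.18 when a library was left out. Equal totals also moved the median of all genes tested, from -0.0046 to 0.29, and the moves above under that setting go with this shift. For the move under library weights the cause was not tested.

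The labels state no pairing of replicates, and correlations between so few libraries cannot show whether there was one. Deviations of same-numbered libraries from the group means correlated at -0.13, 0.033 and -0.093. Libraries did not correlate best with their own number. With the replicate block 0 genes were called, and Nkx2-5 kept its difference of -0.96 (adjusted p 0.115). The lowest depth, about 3650000 reads, limits Tbx5 most.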
